A study of Homo sapiens with 13 samples.

Results

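Surface antigens of small cell lung cancer (SCLC) that antibodies, T-cell engagers, engineered T cells or radioligands are built to recognise were followed in RNA from 2 SCLC lines treated with FHD-286. The group held 9 genes, taken by symbol from the 56831 genes listed in each table: *DLL3*, *SEZ6*, *NCAM1*, *L1CAM*, *CD276*, *SSTR2*, *CEACAM5*, *CD24* and *B4GALNT1*. All 9 were listed in both tables. *B4GALNT1* encodes an enzyme, and its product, the glycolipid GD2, is the antigen. FHD-286 is an allosteric inhibitor of the ATPases SMARCA4 and SMARCA2, the motors of the SWI/SNF chromatin remodelling complexes. H82, of the SCLC-N subtype, and H146, of the SCLC-A subtype, are established human SCLC lines, labelled wild type. Each was cultured without drug (3 libraries of H82, 3 of H146) or with 100 nM FHD-286 for 14 days, with the drug renewed during culture (3 libraries of H82, 4 of H146). No vehicle is given for the untreated cells, and the labels do not say whether libraries of a group came from separate cultures, so *p* values measure only the spread between these libraries.

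High-neuroendocrine SCLC carries a surface unlike that of most epithelial cancers, with neuronal adhesion molecules, a peptide hormone receptor and an inhibitory NOTCH ligand. A therapy that binds such an antigen needs it on the cell, and cells that shift away from the neuroendocrine state can lose it. RNA levels say nothing direct about the amount of protein at the surface, about GD2 itself or about cleavage of an antigen from the cell.

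Values are TPM, a count per gene length that sums to one fixed total in every library. Changes are log2 fold changes, treated minus untreated, of log2(TPM + 1), fitted in each line with limma over the genes that reached 1 TPM in 3 or more of its libraries, and a gene was called at a Benjamini-Hochberg adjusted *p* under 0.05 over all genes tested. Means are given ± SD over 3 untreated libraries and over 3 treated libraries of H82 or 4 of H146, and SE is the standard error of a fitted value. Since 1 was added to each TPM, these values understate the change of genes at low TPM. The number of reads per library is unknown. In H82, 21227 to 21772 genes reached 1 TPM per untreated library and 15554 to 16633 per treated one, and in H146 17476 to 17965 and 18778 to 19309 did. Mitochondrial transcripts held 22.1% to 24.1% of an untreated H82 library and 12.3% to 14.9% of a treated one, and 7.56% to 8.86% and 3.82% to 11.4% in H146. The part of these shifts in the members' changes was not tested. TPM without mitochondrial genes gave the same calls of members, while the median log2 fold change of all genes in H82 went from -0.56 to -0.71. That setting bears on the mitochondrial share only. All 11 neuroendocrine markers of the list examined reached 1 TPM in H82, and 10 did in H146. Treated H82 library 2 stood apart: 114 genes that were at or under 0.1 TPM in every untreated H82 library and at 20 TPM or more in every untreated H146 library summed to 428 TPM there, against 82.4 and 36.7 TPM in treated libraries 1 and 3 and 1.13 to 1.34 TPM in untreated H82. The sum in treated H82 library 2 is 3.86% of the mean in untreated H146 and 6.21% of that in treated H146. In that library, 50 of the 114 genes reached 1 TPM. In bulk RNA, fewer cells with a transcript and less transcript per cell cannot be told apart.

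In H82, 3 of 8 members tested were lower with FHD-286 (*SEZ6*, *L1CAM* and *CD276*) and 0 were higher. Among all 19770 genes tested in H82, 45.5% were lower and 13.1% were higher. In H146, 4 of 9 members were lower (*CEACAM5*, *CD24*, *SEZ6* and *DLL3*) and 1, *B4GALNT1*, was higher, where 15.5% of 19585 genes were lower and 32.5% were higher. At an unadjusted *p* under 0.05 the counts in limma were the same, 3 and 0 in H82 and 4 and 1 in H146. *SEZ6* was the member called lower in both lines. Treated and untreated libraries did not overlap for 3 members in H82 and 5 in H146, against 67.8% and 52.9% of all genes tested. The median log2 fold change of the members was -0.25 in H82 and -0.26 in H146, and that of all genes tested was -0.56 and 0.25.

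A member at 0 therefore lay above the median gene in H82 and below it in H146, and 4 of 8 members in H82 and 7 of 9 in H146 lay below it. Scaling the libraries by the median of ratios moved the median of all genes to -0.16 in H82 and 0.01 in H146, and quantile normalization moved it to 0.01 and 0.06. The former left 58.6% of called H82 genes lower, against 77.7% with the deposited TPM, and 51.1% of called H146 genes, against 32.3%. With the median of ratios, 2 members of H82 were lower (*SEZ6* and *L1CAM*) and 3 were higher (*DLL3*, *NCAM1* and *B4GALNT1*). Among all 19770 genes tested in H82, 6635 were lower and 4683 higher with that scaling. In H146, 4 members were lower and 1 was higher as before, beside 4628 and 4434 of 19585 genes. Without treated H82 library 2, 4 members were lower in H82 and 0 higher, with *SSTR2* added to the lower ones. In that fit 8187 of all 19237 genes tested were lower and 1738 were higher.

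**Figure D1:**
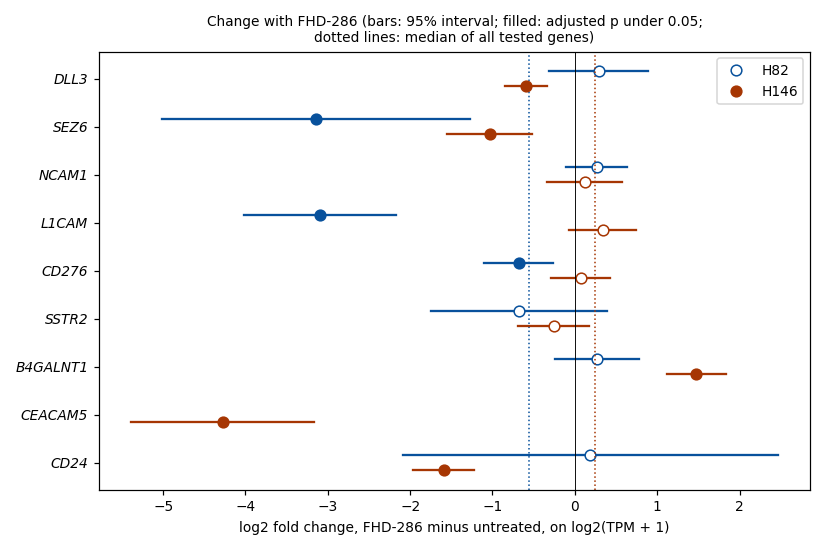
Log2 fold change of each surface antigen (horizontal axis, on log2(TPM + 1)) in H82 and H146, with its 95% interval. Filled points passed an adjusted *p* of 0.05, dotted lines mark the median of all genes tested, and *CEACAM5* was below the filter in H82. *SEZ6* at -3.14 and *L1CAM* at -3.09 lie farthest to the left in H82, and *CEACAM5* at -4.28 in H146.

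The levels of the members per length were ordered differently in the 2 lines. In untreated H146, *CD24* was highest at 2176 ± 62.9 TPM (SD, n = 3), followed by *SEZ6* (200.1 ± 31.8), *CEACAM5* (139 ± 16.6), *DLL3* (70.5 ± 6.13), *NCAM1* (51.0 ± 9.08), *CD276* (48.6 ± 5.08), *L1CAM* (24.0 ± 1.49), *B4GALNT1* (15.2 ± 1.24) and *SSTR2* (1.44 ± 0.244). Of these neighbours, the libraries of *NCAM1* and *CD276* overlapped. In untreated H82 the order was *DLL3* (105 ± 16.0 TPM, SD, n = 3), *CD276* (65.0 ± 3.88), *NCAM1* (52.9 ± 0.947), *SEZ6* (47.2 ± 2.91), *L1CAM* (21.1 ± 1.52), *CD24* (10.7 ± 1.27), *SSTR2* (7.75 ± 0.558), *B4GALNT1* (4.76 ± 1.12) and *CEACAM5* (0.0774 ± 0.134), and no neighbours overlapped. The widest gaps between the untreated lines were in *CEACAM5*, listed at 0 in 2 of the untreated H82 libraries, and in *CD24*, 203 times higher in H146. With FHD-286 the order in H82 led with *DLL3* and *NCAM1*, and in H146 *CD24* and *SEZ6* still led, while *CEACAM5* went from rank 3 to rank 8.

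**Figure D2:**
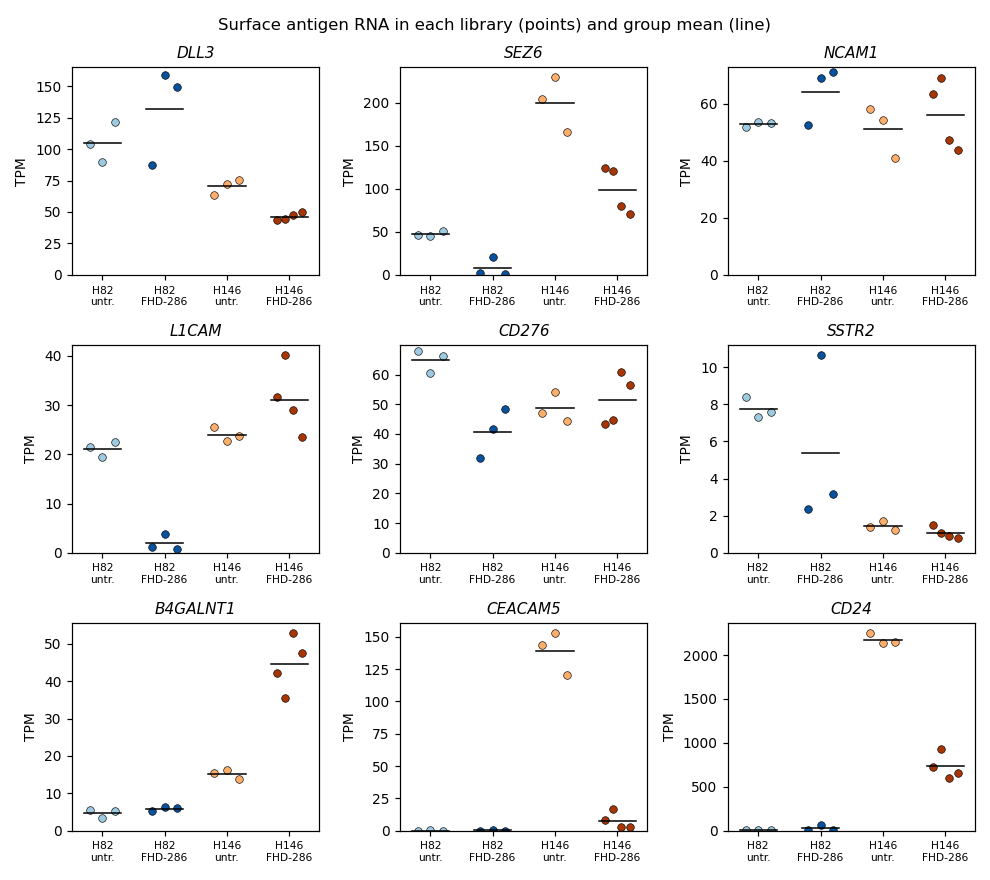
TPM of each surface antigen (vertical axis, linear from 0, a scale of its own in each panel) in every library of the 4 groups, with the group mean as a line. The 4 treated H146 libraries of *CEACAM5* sit between 2.94 and 16.5 TPM, below the untreated ones at 121 to 153 TPM, and treated H82 library 2, the middle point of its group, is the highest of the 3 for all members but *NCAM1* and *CD276*.

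*DLL3* encodes an atypical NOTCH ligand that stays largely inside normal cells, reaches the surface of SCLC cells and is the target of T-cell engagers in use against this cancer (chromosome 19, 39498895 to 39508481, plus strand, GENCODE release 44 on hg38). In H146 it was at 63.6, 72.6 and 75.3 TPM untreated and at 43.8, 44.3, 47.3 and 49.8 TPM with FHD-286. Every treated library lay below every untreated one. The log2 fold change was -0.60 (SE 0.11, limma adjusted *p* = 0.00341), and the treated mean was 65.6% of the untreated mean. In H82 the untreated libraries held 104, 89.5 and 121 TPM and the treated ones 87.3, 159 and 149 TPM. Treated libraries 2 and 3 were above all untreated ones and library 1 was below them. The fitted change was 0.29 and was not called (95% interval -0.31 to 0.89, limma adjusted *p* = 0.362), but median of ratios scaling gave 0.75 (limma adjusted *p* = 0.0244), and leaving out treated library 1 gave 0.56 (limma adjusted *p* = 0.0101). The change in H82 minus that in H146 was 0.88 (SE 0.27, limma adjusted *p* = 0.0142), and it was past the threshold in all 19 alternatives run.

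Of 6 further genes of the DLL, JAG and DLK families, H82 had 5 tested, with 1 lower and 2 higher, and H146 had 6 tested, with 3 lower and 1 higher. With either other scaling these were 0 and 3 in H82 and 3 and 0 in H146. Among all genes tested, 45.5% were lower and 13.1% higher in H82, and 15.5% and 32.5% in H146. With the median of ratios or quantile normalization, 6635 and 4683, or 4859 and 5256, of 19770 genes were so in H82. In H146 it was 4628 and 4434, or 4082 and 4648, of 19585. The change differed between the lines for 4 of the 6 family genes, where 60.2% of the 23676 genes in that fit did. *DLK1*, among the 4, was below the filter in H82 (0.0325 ± 0.0564 TPM untreated), so its difference restates its fall in H146. *DLL1*, an activating ligand, rose in H82 from 2.32 ± 1.05 to 8.97 ± 2.19 TPM. *JAG1*, also an activating ligand, rose there from 1.20 ± 0.341 to 3.46 ± 0.0426 TPM. No difference between the lines was called for *DLK2* and *DLL4* (limma adjusted *p* = 0.692 and 0.722). In H146, *JAG2* fell from 96.0 ± 4.76 to 27.6 ± 5.52 TPM and *DLK1*, a non-canonical ligand, from 54.7 ± 2.95 to 14.4 ± 3.33 TPM. Calls that were lost with the median of ratios were those of *JAG2* in H82 (-0.76 against -0.39) and of *DLK2* in H146 (0.73 against 0.47), and with quantile normalization *JAG2* in H82 was at 0.21.

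*SEZ6* (chromosome 17, 28954901 to 29006440, minus strand) encodes a neuronal membrane protein that is cut from the surface by the protease BACE1 and is a target of antibody-drug conjugates. In H82, its untreated libraries were at 45.8, 45.3 and 50.5 TPM and its treated ones at 2.62, 20.8 and 1.05 TPM. The groups did not overlap, and treated library 2 was well above the other 2. The log2 fold change was -3.14 (SE 0.79, limma adjusted *p* = 0.0123) and became -4.15 without that library (limma adjusted *p* = 0.000598). In H146, untreated libraries were at 204, 230 and 166 TPM and treated ones at 125, 121, 80.0 and 70.9 TPM, again without overlap. There the log2 fold change was -1.04 (SE 0.23, limma adjusted *p* = 0.00627), so that treated H146 kept a mean of 99.2 TPM against 8.17 TPM in treated H82. The fall was larger in H82 by 2.11 on the log2 scale (SE 0.85, limma adjusted *p* = 0.0477). That difference missed the threshold in 15 of 19 alternatives, with adjusted *p* up to 0.187, and was -3.11 without treated H82 library 2 (limma adjusted *p* = 5.22e-05).

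Of the relatives of *SEZ6*, *SEZ6L* fell in H146 and *SEZ6L2* in H82. *SEZ6L* rose in H82, from 0.161, 0.0725 and 0.0859 TPM to 1.70, 3.67 and 1.16 TPM (limma adjusted *p* = 0.00559), where it passed the filter only through the treated libraries. In H146 it fell, from 46.0, 57.4 and 35.7 TPM to 17.9, 21.2, 13.1 and 12.2 TPM (log2 fold change -1.48, limma adjusted *p* = 0.0013). *SEZ6L2* fell in H82 from 89.9 ± 11.9 to 18.7 ± 5.20 TPM (log2 fold change -2.23, limma adjusted *p* = 0.000387), and in H146 its mean moved from 187 ± 6.90 to 262 ± 60.0 TPM (0.45, limma adjusted *p* = 0.0629). The lines differed for both relatives (limma adjusted *p* = 6.08e-05 and 1.6e-05). *BACE1* fell in H82 from 12.0 ± 0.405 to 6.24 ± 2.14 TPM (log2 fold change -0.88, limma adjusted *p* = 0.0147), a call that was lost with both other scalings, and in H146 its change was -0.10 (limma adjusted *p* = 0.647). *BACE2*, a related protease, was higher in H146 (0.42, limma adjusted *p* = 0.0256), which was also lost with both scalings.

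*L1CAM* (chromosome X, 153861514 to 153886173, minus strand) and *NCAM1* (chromosome 11, 112961275 to 113278436, plus strand) encode neuronal adhesion molecules of the immunoglobulin superfamily. NCAM1, known as CD56, is used to recognise SCLC in pathology. *L1CAM* was at 21.4, 19.5 and 22.5 TPM in untreated H82 and at 1.10, 3.89 and 0.684 TPM with FHD-286. It thus went to 8.96% of its untreated mean, with a log2 fold change of -3.09 (SE 0.39, limma adjusted *p* = 0.000759) that was past the threshold in all 12 alternatives. In H146 the untreated libraries were at 25.6, 22.6 and 23.7 TPM and the treated ones at 31.7, 40.1, 28.9 and 23.5 TPM. Treated libraries 1 to 3 were above all untreated ones and library 4 was within their range. The fitted change was 0.34 and was not called (95% interval -0.07 to 0.74, limma adjusted *p* = 0.147), and it was 0.46 without treated library 4 (limma adjusted *p* = 0.0485). The 2 lines, which had similar levels without drug, differed in their change by -3.43 (SE 0.43, limma adjusted *p* = 3.6e-05), and the mean of treated H146 was 16.4 times that of treated H82.

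*NCAM1* was at 51.8, 53.7 and 53.1 TPM in untreated H82 and at 52.5, 69.0 and 71.1 TPM with FHD-286. In H146 it was at 58.1, 54.1 and 40.8 TPM untreated and at 63.4, 68.9, 47.4 and 43.6 TPM treated. The groups overlapped in both lines. Neither change was past the threshold, at 0.26 in H82 (95% interval -0.11 to 0.63, limma adjusted *p* = 0.186) and 0.12 in H146 (95% interval -0.33 to 0.57, limma adjusted *p* = 0.645). In H82 the value was 0.72 with the median of ratios (limma adjusted *p* = 0.00235), 0.35 with quantile normalization (0.0203) and 0.40 without treated library 1 (0.00299), while in H146 it changed sign to -0.16 and -0.020 under these scalings.

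Of 4 further genes of the L1 and NCAM families, 2 were tested in H82 and both fell, where 45.5% of all genes tested were lower. *NRCAM* went from 46.3 ± 3.83 to 12.3 ± 2.13 TPM and *NFASC* from 13.5 ± 0.218 to 3.89 ± 0.245 TPM. In H146, *CHL1* rose from 18.7 ± 3.13 to 43.2 ± 10.96 TPM and *NCAM2* from 0.967 ± 0.129 to 2.05 ± 0.266 TPM (lost with quantile normalization, limma adjusted *p* = 0.0645), while *NRCAM* fell from 88.7 ± 18.7 to 57.6 ± 5.87 TPM. Polysialic acid, the sugar chain that loosens adhesion by NCAM1, is added by the enzymes of *ST8SIA2* and *ST8SIA4*. *ST8SIA4* rose in H146 from 3.58, 4.26 and 2.69 TPM to 14.3, 15.4, 15.6 and 14.8 TPM (log2 fold change 1.84, SE 0.16, limma adjusted *p* = 8.47e-05). H82 held too little of it to pass the filter, at 0.108 ± 0.0462 TPM untreated and 0.538 ± 0.312 TPM treated. *ST8SIA2* was below the filter in both lines, with group means of at most 0.474 TPM. Of the enzymes that supply sialic acid, *GNE* fell in H82 (34.9 ± 1.62 to 18.6 ± 0.196 TPM) while *NANS* rose (21.2 ± 3.29 to 38.3 ± 2.77 TPM) and *CMAS* rose (55.8 ± 4.84 to 86.9 ± 12.0 TPM). *NANS* fell in H146 (15.4 ± 1.14 to 10.9 ± 0.592 TPM), and the transporter gene *SLC35A1* rose there (4.42 ± 0.345 to 8.47 ± 1.05 TPM).

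*CD276* (chromosome 15, 73683966 to 73714514, plus strand) encodes B7-H3, a checkpoint ligand of the B7 family found on many solid tumours. In H82 it was at 68.0, 60.6 and 66.4 TPM untreated and at 31.9, 41.8 and 48.3 TPM treated. The groups did not overlap, and the log2 fold change was -0.68 (SE 0.18, limma adjusted *p* = 0.0143), which is -0.12 from the median of all genes tested in that line. The call was lost after median of ratios scaling (-0.23, limma adjusted *p* = 0.208) and when untreated library 1 or 3 was left out (limma adjusted *p* = 0.0729 and 0.0685). In H146 the libraries were at 47.0, 54.3 and 44.5 TPM untreated and at 43.3, 44.9, 61.0 and 56.6 TPM treated. They overlapped, and the change of 0.07 had a 95% interval of -0.28 to 0.42 (limma adjusted *p* = 0.732) and changed sign under both other scalings. The lines differed by -0.75 (SE 0.24, limma adjusted *p* = 0.0158), a value that vanished to -0.002 with the median of ratios. Of 9 other B7 genes 1 was tested in each line, *NCR3LG1*, which encodes the natural killer cell ligand B7-H6 and fell in H82 from 24.1 ± 0.489 to 4.83 ± 1.33 TPM.

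*SSTR2* (chromosome 17, 73165010 to 73176633, plus strand) encodes the somatostatin receptor that somatostatin analogues and radioligands bind in neuroendocrine tumours. In H82 it was at 8.38, 7.30 and 7.59 TPM untreated and at 2.34, 10.7 and 3.15 TPM treated. Treated libraries 1 and 3 were below all untreated libraries and library 2 was above them. The log2 fold change was -0.68 (95% interval -1.75 to 0.39, limma adjusted *p* = 0.234), and without treated library 2 it was -1.23 (limma adjusted *p* = 0.0057). It changed sign to 0.11 with quantile normalization. In H146 the level was near the filter, at 1.41, 1.70 and 1.21 TPM untreated and 1.47, 1.06, 0.888 and 0.79 TPM treated, with a change of -0.26 (95% interval -0.68 to 0.17, limma adjusted *p* = 0.283) that was called with quantile normalization (-0.48, limma adjusted *p* = 0.0465). *CORT*, which encodes the somatostatin-like peptide cortistatin, fell in H82 from 13.1 ± 2.03 to 1.70 ± 0.854 TPM. *SST*, the gene of somatostatin, was higher in treated H146, at 10.8, 4.48, 1.39 and 0.486 TPM against 0.312, 0 and 0.141 TPM. The log2 fold change was 1.77 (limma adjusted *p* = 0.0449), but *SST* passed the filter only through the treated libraries. The change was not past the threshold with either other scaling (limma adjusted *p* = 0.0596 and 0.0572).

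*CEACAM5* (chromosome 19, 41708585 to 41730433, plus strand) encodes carcinoembryonic antigen, a glycoprotein held in the membrane by a GPI anchor and best known from cancers of the gut. It fell most among the members of H146, from 144, 153 and 121 TPM to 8.39, 16.5, 2.94 and 3.11 TPM. The treated mean was 5.57% of the untreated one, with a log2 fold change of -4.28 (SE 0.49, limma adjusted *p* = 0.000299) that ranged from -4.71 to -3.99 over the alternatives. It was below the filter in H82, listed at 0, 0.232 and 0 TPM untreated and at 0.0357, 0.414 and 0.0381 TPM treated, for which an exact permutation test gave a two-sided *p* of 0.5, where 0.1 is the smallest that 3 against 3 libraries allow. No comparison of its change between the lines is drawn, since a gene near 0 in H82 had no level to fall from. Reads of *CEACAM5* may be shared with its close paralogs, and how the authors' counting treated such reads is not given in the sources used here. Of 11 other CEACAM genes, 5 were tested in H146, where *CEACAM6*, also GPI-anchored, fell from 3.43 ± 0.616 to 0.943 ± 0.286 TPM, *CEACAM16* fell from 4.68 ± 0.283 to 0.0473 ± 0.0603 TPM and *CEACAM8* rose from 0.0857 ± 0.0243 to 1.71 ± 0.557 TPM. In H146 *CEACAM16* reached 1 TPM only in untreated libraries and *CEACAM8* only in treated ones, which alone took each past the filter. In H82 *CEACAM19* fell from 19.1 ± 0.801 to 3.67 ± 2.07 TPM.

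*CD24* (chromosome 6, 106969831 to 106975627, minus strand) encodes a small, heavily glycosylated protein with a GPI anchor that binds Siglec-10 on macrophages. In H146 it fell from 2248, 2134 and 2146 TPM to 731, 933, 601 and 660 TPM. No treated library came near the untreated range, and the log2 fold change was -1.59 (SE 0.16, limma adjusted *p* = 0.000181). It remained the most abundant member by length in treated H146. In H82 it was at 10.7, 12.1 and 9.52 TPM untreated and at 7.91, 69.6 and 2.76 TPM treated. Libraries 1 and 3 were below the untreated range and library 2 was far above it. The log2 fold change was 0.19 (95% interval -2.09 to 2.47, limma adjusted *p* = 0.88) and changed sign to -1.02 without library 2 (limma adjusted *p* = 0.0659). Summed epithelial markers, 8 genes in all and all above 0 in at least 1 library of each group, went from 3.21 to 5.47 TPM in untreated H82 to 10.1 to 115 TPM in treated H82, and from 2252 to 2416 TPM in untreated H146 to 581 to 650 TPM in treated H146. Among these markers in treated H82, *KRT19* was at 50.2 TPM in library 2 against 1.43 and 1.15 TPM in libraries 1 and 3. *EPCAM* was at 32.8 against 3.08 and 1.11 TPM. *KRT18*, at 3.77 to 6.25 TPM, and *KRT8*, at 3.02 to 23.9 TPM, were above the untreated libraries (at most 0.725 and 0.791 TPM) in every treated one. Groups did not overlap for 3 of the 5 markers tested in H82 (*KRT8*, *KRT18* and *KRT19*), beside 67.8% of all genes. Of the markers tested in H82, 2 of 5 were called higher, beside 13.1% of all genes. Without library 2, only 2 markers still passed the filter and 0 were called. *KRT18* and *KRT8* then left the fit because they reached 1 TPM only in treated libraries, so that loss says nothing of their change. The part of the epithelial markers in the *CD24* values was not tested. *CD24* also has near-identical copies in the genome, which makes its counts uncertain.

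**Figure D3:**
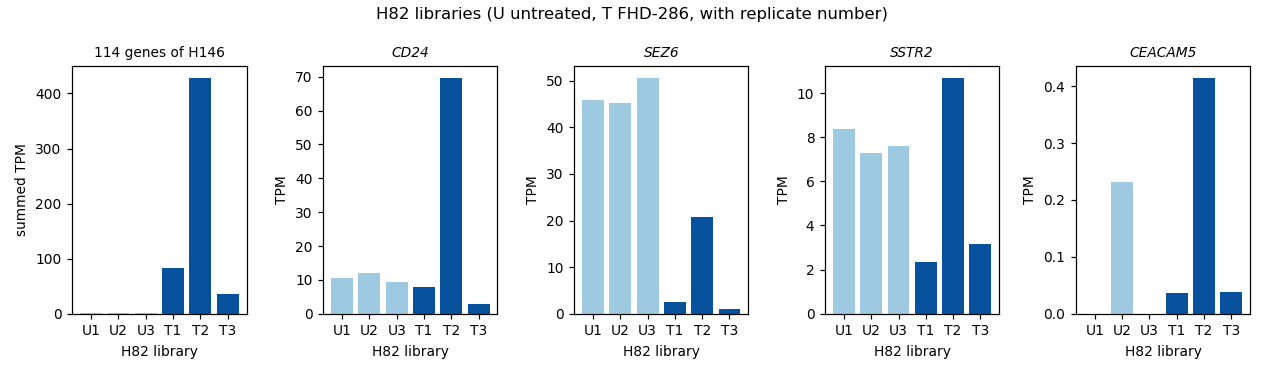
Summed TPM of the 114 genes of untreated H146 (left) and TPM of 4 surface antigens in each H82 library (bars, vertical axes from 0, a scale of its own in each panel). Treated library 2 is the highest treated library in all 5 panels, at 428 TPM for the gene sum, 69.6 for *CD24*, 20.8 for *SEZ6*, 10.7 for *SSTR2* and 0.414 for *CEACAM5*.

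In that library, *CEACAM5*, at a mean of 139 TPM in untreated H146 and 7.74 TPM in treated H146, was at 0.414 TPM. *SSTR2*, at a mean of 1.44 TPM in untreated H146 and 1.05 TPM in treated H146, was at 10.7 TPM. The part of the library's other content in the values of *CD24*, *SEZ6* and *SSTR2* was not tested. *SEZ6* and *L1CAM* were lower in H82 with and without the library, and *CD276* was at -0.68 with it and -0.71 without it.

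The stretches of 250 bases before to 50 bases after the gene start, given for 5 of the 9 members by RefSeq on GRCh38.p14, are shown for *CEACAM5* and *CD24*, which fell in H146 by the most among the members. Capitals mark CANNTG, the E-box core that basic helix-loop-helix factors read, which reads as CANNTG on either strand. Such a core was found in 68.7% of the 35116 promoter windows, and CACGTG in 7.26%. Both lines run 5′ to 3′ on the strand of the gene, *CEACAM5* at chr19:41708376-41708675 (plus strand) and *CD24* at chr6:106975578-106975877 (minus strand).
CEACAM5: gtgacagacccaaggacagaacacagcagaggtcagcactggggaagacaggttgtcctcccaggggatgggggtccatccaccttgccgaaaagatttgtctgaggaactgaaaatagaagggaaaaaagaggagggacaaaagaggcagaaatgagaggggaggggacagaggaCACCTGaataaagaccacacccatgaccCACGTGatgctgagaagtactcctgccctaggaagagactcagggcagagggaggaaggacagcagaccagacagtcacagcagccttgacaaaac
CD24: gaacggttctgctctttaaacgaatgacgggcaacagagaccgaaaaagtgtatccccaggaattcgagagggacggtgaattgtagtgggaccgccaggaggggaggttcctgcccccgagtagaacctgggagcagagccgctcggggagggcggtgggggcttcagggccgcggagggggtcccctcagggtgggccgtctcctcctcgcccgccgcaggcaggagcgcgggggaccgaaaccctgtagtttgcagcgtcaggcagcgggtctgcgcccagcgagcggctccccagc
The *CEACAM5* window held CACCTG, starting 74 bases before the gene start, and CACGTG, starting 46 bases before it. The *CD24* window shown held no such core, nor did a second one that overlaps it, and the last of its 3 windows, chr6:106973990-106974289, held CAGGTG. Nothing was measured at these sequences here, and neither a match nor its absence says what binds there.

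*B4GALNT1* (chromosome 12, 57623409 to 57633239, minus strand) encodes the GM2/GD2 synthase, which adds N-acetylgalactosamine to GM3 or GD3. Its product GD2 is the target of antibodies used in neuroblastoma. It was the member that rose, in H146, from 15.5, 16.3 and 13.9 TPM to 42.1, 35.6, 53.0 and 47.5 TPM. Every treated library was at more than 2 times the untreated mean, and the log2 fold change was 1.48 (SE 0.16, limma adjusted *p* = 0.000215), from 1.21 to 1.58 over the alternatives. Its H82 libraries were at 5.46, 3.47 and 5.35 TPM untreated and at 5.24, 6.26 and 6.10 TPM treated. The groups overlapped, with a change of 0.27 (95% interval -0.24 to 0.78, limma adjusted *p* = 0.317) that was 0.66 with the median of ratios (0.0342) and 1.13 with quantile normalization (0.00711). The lines differed by -1.21 (SE 0.25, limma adjusted *p* = 0.00128), but by -0.52 (0.0562) and -0.13 (0.689) under those scalings. On the opposite strand, exons of other genes overlap those of *B4GALNT1*, *L1CAM* and *NCAM1*, and whether the kit kept strand is not given in the sources used here.

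Of 15 further genes of ganglioside synthesis, the pathway of *B4GALNT1*, H146 had 13 tested, with 2 lower and 8 higher (3 and 7 with either other scaling), and H82 had 11 tested, with 6 lower and 3 higher (3 and 3 with the median of ratios, 3 and 4 with quantile normalization). Among all genes tested, 15.5% were lower and 32.5% higher in H146, and 45.5% and 13.1% in H82. With the other scalings, 4628 and 4434, or 4082 and 4648, of 19585 genes were so in H146. In H82 it was 6635 and 4683, or 4859 and 5256, of 19770. The median log2 fold change of the tested ganglioside genes was 0.64 in H146 and -0.73 in H82, beside 0.25 and -0.56 for all genes, and with quantile normalization the median in H82 was 0.41. In the fit over both lines, 8 of 13 differed between them, near the 60.2% of all genes. *FUT1*, among the 8, was below the filter in H82 (0.691 ± 0.316 TPM untreated), so its difference largely restates its fall in H146. *B4GALT6*, a lactosylceramide synthase, rose in both lines, in H82 from 2.11 ± 0.191 to 3.99 ± 0.415 TPM and in H146 from 4.25 ± 0.438 to 11.9 ± 2.72 TPM.

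Before *B4GALNT1* on the path, *UGCG*, which makes glucosylceramide, rose in H146 from 12.5 ± 1.56 to 19.97 ± 1.23 TPM and fell in H82 from 64.4 ± 8.05 to 26.5 ± 2.13 TPM. *B4GALT5*, a lactosylceramide synthase, rose in H146 from 32.7, 43.3 and 24.8 TPM to 129, 96.5, 125 and 143 TPM (log2 fold change 1.87, limma adjusted *p* = 0.000252). In H82 it fell from 136 ± 3.97 to 78.7 ± 30.0 TPM (-0.87, limma adjusted *p* = 0.0402), which was lost with the median of ratios. *ST3GAL5*, the GM3 synthase, fell in H146 from 3.60 ± 0.123 to 1.86 ± 0.393 TPM and was not called in H82, at 0.13 (limma adjusted *p* = 0.679). With quantile normalization it was called higher in H82, at 1.15 (limma adjusted *p* = 0.00388), but not with the median of ratios (0.38, limma adjusted *p* = 0.286).

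*ST8SIA1*, the GD3 synthase, whose product is the direct precursor of GD2, was at 1.96, 2.63 and 2.01 TPM in untreated H146 and at 13.5, 11.2, 6.01 and 6.11 TPM with FHD-286. The H82 libraries were at 15.1, 18.1 and 14.3 TPM untreated and at 3.56, 5.39 and 5.34 TPM treated. It thus rose in H146 by 1.61 on the log2 scale (SE 0.29, limma adjusted *p* = 0.00257) and fell in H82 by 1.56 (SE 0.21, limma adjusted *p* = 0.000911), and no groups overlapped. The lines differed by -3.16 (SE 0.38, limma adjusted *p* = 2.57e-05), and both changes kept their direction and call with both other scalings. In treated H146, *ST8SIA1* and *B4GALNT1* were thus both higher than without drug, and in treated H82 *ST8SIA1* was lower and *B4GALNT1* was not called. Past *B4GALNT1*, *B3GALT4*, which extends GD2 to GD1b, was higher in H146 (0.61, limma adjusted *p* = 0.0129, and 0.36 with the median of ratios, 0.0961). *ST3GAL2*, a sialyltransferase of later steps, rose in H146 from 1.77 ± 0.0786 to 9.09 ± 2.44 TPM and fell in H82 from 19.2 ± 2.51 to 11.4 ± 2.95 TPM, the fall being lost with both other scalings. Among the remaining genes of the list, the fucosyltransferase gene *FUT1* fell in H146 from 43.3 ± 5.59 to 13.9 ± 1.78 TPM. In H82 the sialyltransferase gene *ST8SIA3* fell from 1.81 ± 0.298 to 0.105 ± 0.0324 TPM and passed the filter only through the untreated libraries. Its call was lost with quantile normalization, at -0.15 (limma adjusted *p* = 0.495). *ST6GALNAC5* rose in H82 from 1.55 ± 0.259 to 3.87 ± 1.21 TPM. *ST6GALNAC3* rose there from 3.72 ± 0.711 to 8.66 ± 3.69 TPM, which was not past the threshold without treated library 2 (limma adjusted *p* = 0.116).

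**Figure D4:**
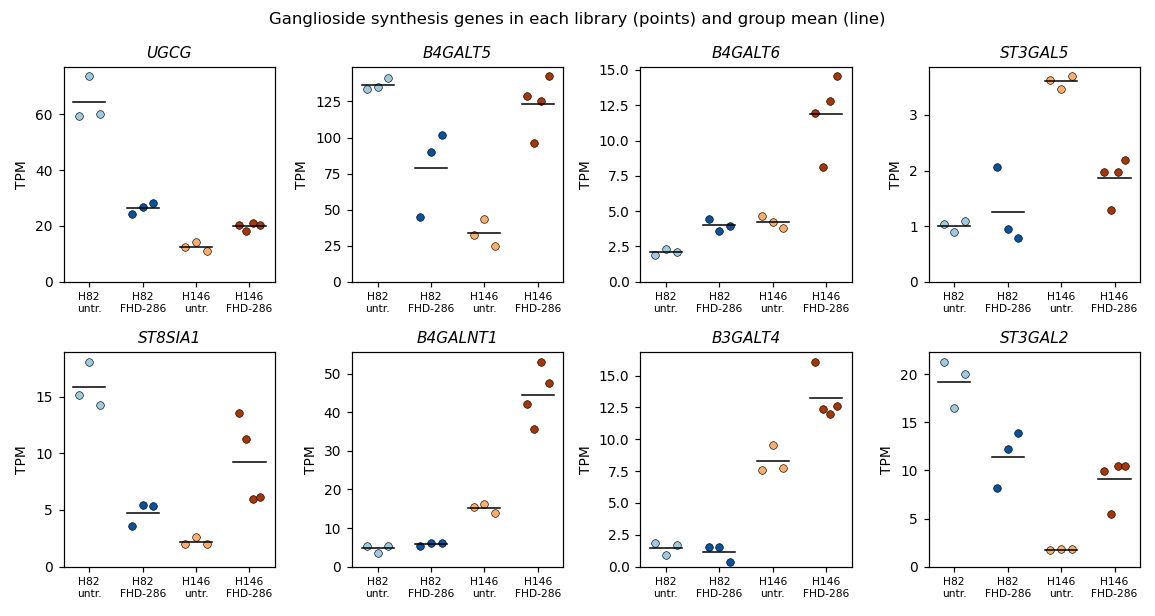
TPM (vertical axis, linear from 0, a scale of its own in each panel) of *B4GALNT1* and 7 further ganglioside synthesis genes in every library of the 4 groups, with the group mean as a line. *ST8SIA1* goes from a mean of 15.8 to 4.76 TPM in H82 and from 2.20 to 9.22 TPM in H146, and *B4GALNT1* from 4.76 to 5.87 TPM and from 15.2 to 44.5 TPM.

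GPI anchors hold *CEACAM5* and *CD24* proteins in the membrane. Of 23 genes of GPI anchor synthesis, 22 were tested in each line, where 5 were lower and 6 higher in H82 (1 and 10 with the median of ratios, 1 and 11 with quantile normalization) and 2 were lower and 10 higher in H146 (5 and 7, 4 and 7). Among all genes tested, 45.5% were lower and 13.1% higher in H82, and 15.5% and 32.5% in H146. Of all 19770 genes in H82, these were 6635 and 4683 with the median of ratios and 4859 and 5256 with quantile normalization. Of 19585 in H146, they were 4628 and 4434, and 4082 and 4648. *PIGA*, which encodes a subunit of the enzyme of the pathway's opening step, fell in H82 from 26.6 ± 4.80 to 10.9 ± 0.321 TPM, and *PIGC*, of the same enzyme, rose from 19.8 ± 1.67 to 35.0 ± 3.43 TPM. In H146 the largest rises were in *PIGM* (3.92 ± 0.737 to 25.5 ± 9.30 TPM) and *PIGW* (3.92 ± 0.29 to 17.1 ± 6.03 TPM), and falls were seen in *PIGP* and *DPM2* (log2 fold changes -0.59 and -0.46).

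Other surface proteins aimed at by antibodies or engineered cells in solid tumours changed in either direction. Of 46 such genes, 26 were tested in H82 (8 lower and 9 higher, or 5 and 11 with the median of ratios and 6 and 14 with quantile normalization) and 34 in H146 (9 lower and 9 higher, or 10 and 4 and 10 and 3). Among all genes tested, 45.5% were lower and 13.1% higher in H82, and 15.5% and 32.5% in H146. With the other scalings, 6635 and 4683, or 4859 and 5256, of 19770 genes were so in H82. In H146 it was 4628 and 4434, or 4082 and 4648, of 19585. *CLDN18*, a tight junction gene whose stomach isoform is a drug target, fell in both lines, from 335 ± 47.5 to 12.2 ± 4.79 TPM in H146 (log2 fold change -4.74) and from 8.65 ± 0.6 to 0.184 ± 0.081 TPM in H82 (-3.03). In H82 *CLDN18* reached 1 TPM only in untreated libraries, which alone took it past the filter. Which isoform the reads came from was not resolved per gene. In H82, *FOLR1*, the folate receptor, fell from 13.01 ± 1.52 to 0.736 ± 0.476 TPM, whereas *STEAP1* rose from 6.60 ± 1.35 to 54.6 ± 12.5 TPM and *GPC3* from 3.63 ± 1.27 to 28.3 ± 6.45 TPM. In H146, *CXCR4*, a chemokine receptor, fell from 73.8 ± 8.45 to 18.6 ± 5.65 TPM and *CDH6*, a cadherin, rose from 6.98 ± 0.53 to 32.6 ± 10.2 TPM, as did *CLDN6*, from 0.142 ± 0.029 to 1.84 ± 0.469 TPM. *CLDN6* reached 1 TPM in H146 only in treated libraries, which alone took it past the filter. *CD47*, the other anti-phagocytic signal beside *CD24*, was not called in either line (-0.22 and 0.23, limma adjusted *p* = 0.259 and 0.0931).

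Of the 8 members tested in both lines, 5 differed in their change (*DLL3*, *SEZ6*, *CD276*, *B4GALNT1* and *L1CAM*), where 58.6% of the 15679 genes tested in both did. No difference was called for *NCAM1* (0.14, 95% interval -0.43 to 0.72), *SSTR2* (-0.42, 95% interval -1.49 to 0.64) and *CD24* (1.78, 95% interval -0.39 to 3.95). With the median of ratios those called were *DLL3*, *L1CAM* and *NCAM1*. Of all 23676 genes in that fit, 7585 had a called negative difference and 6006 a positive one. With quantile normalization those called were *DLL3*, *L1CAM*, *CD276* and *CD24* (2.51, limma adjusted *p* = 0.029), beside 6174 and 6156 of all genes. The difference of *CD24* was also called without treated H82 library 3 (2.69, limma adjusted *p* = 0.0115). Without treated H82 library 2 the difference of *SSTR2* was called as well (-0.97, limma adjusted *p* = 0.0078). *DLL3* and *L1CAM* were past the threshold in all 19 alternatives.

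**Figure D5:**
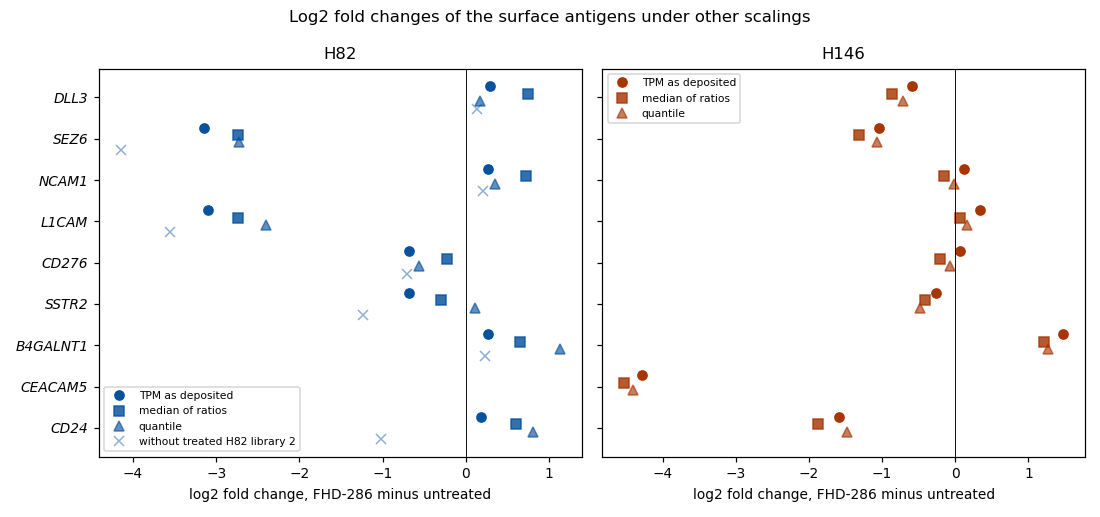
Log2 fold change of each surface antigen in H82 (left) and H146 (right) with the deposited TPM and after median of ratios scaling or quantile normalization, and for H82 also without treated library 2. In H82 *SEZ6* and *L1CAM* lie at -2.40 or below in all 4 settings, and *CD24* moves from 0.19 to -1.02 when that library is left out.

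Genes whose pattern was most like that of a member were sought by the Pearson correlation of log2(TPM + 1), centred within each line, over the 13 libraries and 15679 genes tested in both lines. The points share the treatment contrast and the libraries, so these values are descriptions. For *SEZ6* they were *NRSN1* (0.98), *CPLX1* (0.98) and *CCDC64* (0.97), and for *L1CAM* *UNC13A* (0.98), *ELAVL3* (0.98) and a transcript listed by a clone name (0.98). For *B4GALNT1* they were *LLGL1* (0.99), *SLC10A3* (0.99) and *PCDHB2* (0.98), for *CD276* *METTL16* (0.97) and *SMG6* (0.97), and for *CD24* *HTR3A* (0.96), *FXYD3* (0.95) and *TEX9* (0.95). *DLL3* was most like *GNAI2* (0.94), *SMARCD2* (0.94) and *TATDN2* (0.94), *SSTR2* most like *SLC27A3* (0.94), *ALDOC* (0.93) and *DRD2* (0.91), and *NCAM1* most like *MAST2* (0.93), *APP* (0.89) and *SPTBN1* (0.89). *CEACAM5* was not tested in H82 and has no such list.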

How the data were processed

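RNA of H82 and H146 cells, untreated or given FHD-286, was isolated and sequenced at a service provider. Per the submitters' processing notes and the study's methods, reads were trimmed with Trim Galore 0.4.4, mapped to hg38 with STAR and counted with the GENCODE annotation, release 28, and the authors compared groups with DESeq2 on counts, which were not used here. The authors deposited TPM values, 1 table per line, with each library summing to 1e+06 and no other scaling. Read depth is unknown, so no interval or limit from counts is given, and the number of libraries sets the precision. Genes were matched by symbol; 29 symbols had become dates, and no member was among them. Coordinates came from GENCODE release 44 and promoter windows from RefSeq.

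Separate fits for each line used limma 3.58.1 (R 4.3.3; eBayes with trend) on log2(TPM + 1), with treatment as the only term, over genes with at least 1 TPM in 3 libraries. The test was two-sided, at a Benjamini-Hochberg adjusted *p* of 0.05 over all genes tested. Differences between lines were the line-by-treatment term of a fit over all 13 libraries. Members below the filter were compared by an exact permutation test. Gene lists are described by counts and medians. Named relatives were, for each list and line, up to 2 largest rises and falls among called genes without overlap between groups, plus fixed pathway partners (*ST8SIA1*, *ST3GAL5*, *ST8SIA2*, *ST8SIA4*, *BACE1*, *BACE2*, *SST*, *SEZ6L*, *SEZ6L2* and *CD47*; results for some genes named by these rules are not reported here); *UGCG*, *B4GALT6*, *B3GALT4*, *B4GALT5* and *ST3GAL2* were shown as steps of the same pathway after their values were seen. The members and lists were chosen with earlier results of these data known. Alternatives were scaling by the median of ratios, quantile normalization, TPM without mitochondrial genes, a pseudocount of 0.1, no filter, the replicate number as a block and each library left out in turn. On simulated data with 200 genes changed, the H82 fit called 17% of changes of 1 and 74% of changes of 2 on the log2 scale. There were 6 false calls among 19654 genes. The H146 fit called 53% and 94%, with 4 false calls among 19233. Far larger shares were called in the data (45.5% lower and 13.1% higher in H82, 15.5% and 32.5% in H146). The Benjamini-Hochberg cutoff depends on that share, so the simulated percentages do not give the recovery in the data. Plots were drawn with Python 3.11.15 and matplotlib 3.10.9.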

Additional observations from a re-analysis of the deposited data

Results flagged for a closer look

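The interaction test in limma called a difference between H82 and H146 in the change with FHD-286 for 6 members. As the log2 fold change in H82 minus that in H146, the difference was 0.88 for *DLL3*, -3.43 for *L1CAM*, -2.11 for *SEZ6*, -1.21 for *B4GALNT1* and -0.75 for *CD276*, where 58.6% of the genes tested in both lines differed. The value of 4.38 for *CEACAM5* restates its fall in H146, since the gene was near 0 in H82, passed the filter through H146 alone and had no level to fall from. No member had a treated H146 library far enough from the other 3 to be singled out, in 9 groups of 4 libraries examined (groups of 3 were not examined).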

How the results depend on the processing

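The 4 members lower in H146 and *B4GALNT1*, higher there, and *SEZ6* and *L1CAM*, lower in H82, were called in the same direction in every alternative run. The count of members higher in H82, 0 with the deposited TPM, was 3 after median of ratios scaling and 2 after quantile normalization. Of all 19770 genes tested, 2588, 4683 and 5256 were higher in these settings. With 1 library left out the count was 0 to 2 (2, *DLL3* and *NCAM1*, without treated library 1, where 3503 of all 19058 genes were higher). The count higher in H146 was 1 to 2 with 1 library left out, where *L1CAM* joined without treated library 4 (5490 of all 19018 genes were higher there). Changes that reversed were those of *SSTR2* in H82 with quantile normalization (0.11), *CD24* in H82 without treated library 2 (-1.02 to 1.10 with 1 library left out), *NCAM1* in H146 under the scalings by median of ratios (-0.16) and quantiles (-0.020) and without untreated library 3 (-0.032 to 0.23 with 1 left out), *CD276* in H146 under the same scalings (-0.20 and -0.075) and without treated library 3 (-0.015 to 0.15 with 1 left out), and the line difference of *SSTR2* under both scalings (0.10 and 0.58). None of these was called before or after. *CEACAM5* in H82, below the filter, went from 0.10 to between -0.048 and 0.20 with 1 library left out, without a *p* under 0.2. *SSTR2* made 5 members lower in H146 with quantile normalization, where 4082 of all 19585 genes were lower. The causes were not tested. Deviations of same-numbered libraries correlated at -0.11 to 0.03, and those of differently numbered ones at -0.04 to 0.11. Replicate numbers were therefore not used as pairs in the main fits, though such values cannot tell whether libraries were paired in culture. With the replicate block, 3 members were lower and 0 higher in H82, beside 8625 and 2333 of all 19770 genes. In H146, 4 were lower and 1 higher, beside 2377 and 4749 of 19585. Between the lines 5 members differed (*CEACAM5*, near 0 in H82, among them), and the difference of *CD276* was lost (-0.70, limma adjusted *p* = 0.0649). Of all 23676 genes in that fit, 10158 had a called negative difference and 2872 a positive one. Read depth is unknown, and the SD of log2 differences between libraries of 1 group spanned 0.545 to 0.812 for H82, while for H146 it spanned 0.336 to 0.379 without FHD-286 and 0.341 to 0.799 with it.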
